A study of Mus musculus with 9 samples.

Results

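The enzymes of glycolysis and of glycogen metabolism exist as isoforms that different tissues use, and their transcripts were followed here in whole mouse cochleae under calorie restriction and with age. The 32 enzymes were listed by gene symbol, and the probe sets annotated with exactly 1 of these symbols were taken. This gave 56 probe sets for 29 genes among the 45037 probe sets and 18193 named genes of the array table. For Gpi1 and Eno1 no annotated probe set was found, and the probe sets of Gapdh carried several symbols, so these 3 genes have no value here. Of the 56 probe sets, 49 passed a filter that removed the dimmest 40% of all probe sets, among them the brightest probe set of each of the 29 genes, which stands for the gene below.

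Glycolysis splits glucose into pyruvate and yields ATP without oxygen, and glycogen is the glucose store that feeds it in working muscle. Several steps are coded by a family of genes whose members differ in tissue use, so that muscle has its own phosphorylase, phosphofructokinase, phosphoglycerate mutase and enolase, while brain and liver use others. The cochlea, the snail-shaped hearing organ, lies in the temporal bone, next to the muscles of the middle ear and the brainstem, and its stria vascularis has a high demand for energy.

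All animals were male C57BL/6 mice, an inbred strain, housed singly. The calorie-restricted group (CR) was 15 months old and had received 62 kcal per week, 26% less than controls, since the age of 2 months. The older control group (MC) was 15 months old and the young control group (YC) 4 months old, both on 84 kcal per week. Each group had 3 samples, each made from 4 cochleae pooled from 2 mice and hybridised to 1 array, so the replicate error is that between pools.

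Signals are normalized log2 values of deposited linear intensities. The 9 arrays had median deposited signals of 535.2, 616.7 and 626.6 in CR, 931.1, 843.6 and 981.3 in MC and 526.8, 1103.9 and 842.4 in YC. All CR arrays and YC 1 were thus low in median and all MC arrays high, so group and array median cannot be told apart between CR and MC. Cochlear markers were present: Otos, the otospiralin gene of the spiral ligament, lay at the 99.2th percentile of mean signal and Gjb6, a connexin of supporting cells and stria, at the 97.9th. Of 12 inner ear markers 10 passed the signal filter, and Tecta and Kcne1 did not. Of 6 hair cell markers 4 passed it, and Slc26a5, the motor protein prestin, and Pou4f3 did not.

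The comparison of CR with MC asked which of these enzymes differed after restriction. Muscle isoforms were lower in restricted cochleae, and 2 of them passed the test: Pygm, the glycogen phosphorylase of muscle, fell 5.73-fold and Eno3, the muscle enolase, fell 4.38-fold. All 7 muscle isoforms had negative log2 changes with a median of -1.38, and 6 of the 7 under median centring of the arrays. All 5 forms shared by muscle and most other tissues were negative with a median of -0.65, but only 2 of the 5 under median centring. Of the 7 brain isoforms 6 had positive changes with a median of 0.26, and 3 of the 7 with array class as a term. Over all 27022 probe sets tested the median was 0.08. Centring each array on its median gave an overall value of 0.58 and class medians of -1.04 for muscle isoforms, 0.09 for the shared forms and 1.19 for brain isoforms. A term for array class put the brain median at -0.06. Only YC held arrays of both classes, so that term rests on YC 1, its single low array, against YC 2 and YC 3.

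**Figure D1:**
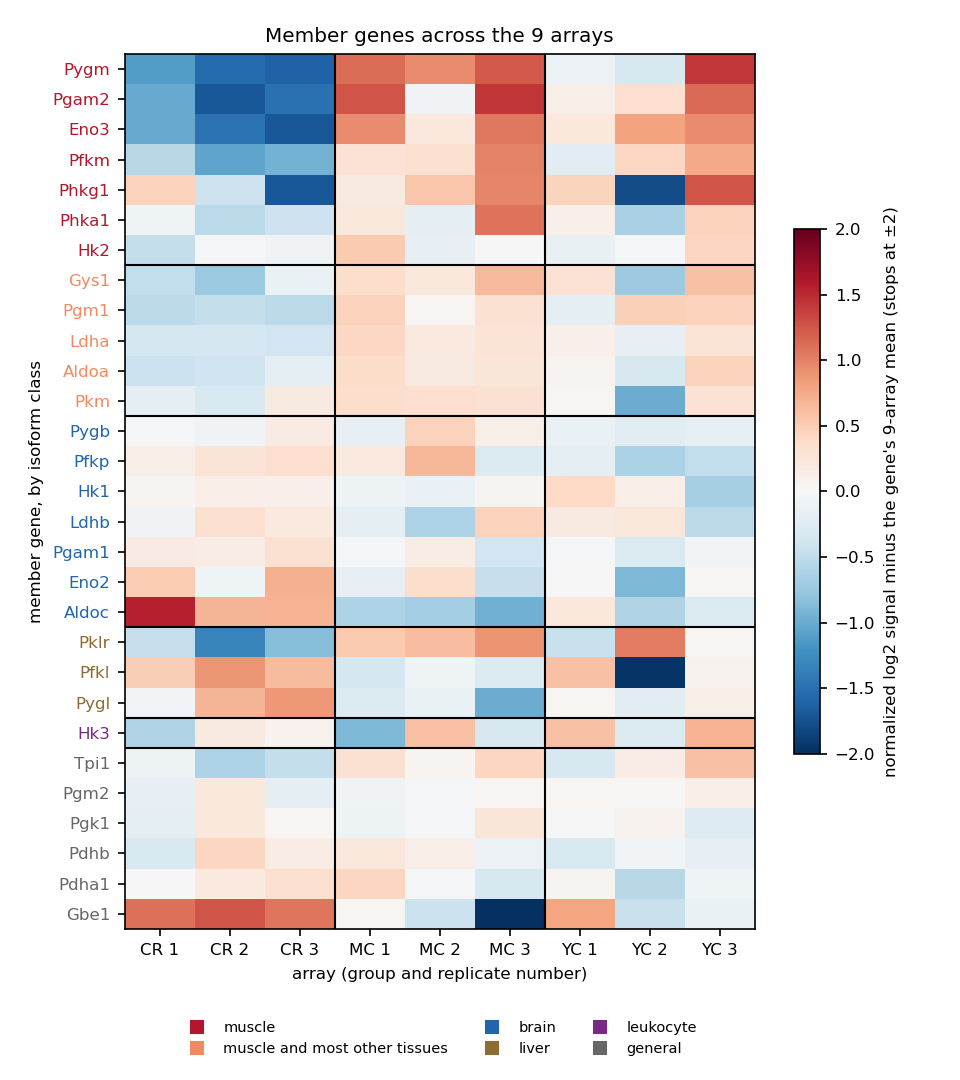
Normalized log2 signal of the 29 measured enzymes, each as the difference from its own mean over the 9 arrays, with arrays in columns (CR, MC, YC) and genes in rows grouped and coloured by isoform class; red is above and blue below the gene's mean. Pygm, Pgam2, Eno3 and Pfkm are blue in all 3 CR arrays, and Aldoc and Gbe1 are red there.

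The test was limma over all 27022 probe sets with Benjamini-Hochberg adjustment at 0.05, in which 24 probe sets, 0.0888%, were called lower in CR. Both called members were in that direction and none was called higher. Without adjustment 13 of the 29 members had p under 0.05, against 18.5% of all probe sets. In 11 members all CR arrays lay below all MC arrays, against 18.2% of all probe sets, and in 5 members they all lay above, against 19.5%.

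Among the muscle isoforms of glycogen breakdown, Pygm releases glucose units from glycogen. Its normalized log2 signals were 12.37, 11.94 and 11.87 in CR, against 14.61, 14.43 and 14.71 in MC and 13.37, 13.16 and 14.90 in YC. All CR arrays were below every other array, and the MC and YC ranges overlapped. The change from MC was -2.52 ± 0.38 (SE, n = 3 per group, limma adjusted p = 0.0477). The call was kept in 9 of 21 alternatives and the sign in all 21. It was lost without any 1 of the 6 CR and MC arrays (adjusted p = 0.079 to 0.247), and with median centring the change was -1.65.

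Phka1 encodes the muscle regulatory alpha subunit, and Phkg1 the muscle catalytic subunit, of phosphorylase kinase, which switches phosphorylase on. Phka1 had log2 signals of 11.15, 10.70 and 10.82 in CR, against 11.46, 11.06 and 12.33 in MC, with overlapping ranges and a change of -0.73 ± 0.39 (limma adjusted p = 0.326). Its other probe sets gave -0.82 without overlap and -0.12 with overlap. Phkg1 was dim, with 9.66, 8.79 and 7.50 in CR, against 9.39, 9.76 and 10.18 in MC. These ranges overlapped too, and the change was -1.13 ± 0.80 (limma adjusted p = 0.448).

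Of the muscle isoforms of glycolysis, Hk2, the insulin-regulated hexokinase, had 11.94, 12.37 and 12.33 in CR, against 12.93, 12.24 and 12.40 in MC. The groups overlapped, and the change of -0.31 ± 0.26 (limma adjusted p = 0.516) became 0.58 with median centring and 0.03 with array class as a term. Pfkm, the muscle subunit of phosphofructokinase at the committed step, had 13.52, 13.02 and 13.13 in CR, against 14.36, 14.39 and 15.06 in MC. Its groups did not overlap, and the change was -1.38 ± 0.28 (limma adjusted p = 0.108).

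Pgam2, the muscle phosphoglycerate mutase of lower glycolysis, had 12.11, 11.43 and 11.63 in CR, against 14.37, 13.05 and 14.55 in MC. MC 2 was the lowest of its group but still above every CR array, and the change was -2.27 ± 0.40 (limma adjusted p = 0.0804). Without MC 2 the change was -2.74 (limma adjusted p = 0.0251). Eno3, which converts the mutase's product to phosphoenolpyruvate, had 13.92, 13.46 and 13.25 in CR, against 15.88, 15.14 and 15.99 in MC and 15.15, 15.73 and 15.87 in YC. Every CR array was below every other array, while MC and YC overlapped. The change from MC was -2.13 ± 0.28 (limma adjusted p = 0.0357). Its call was kept in 11 of 21 alternatives and its sign in all 21, with -1.20 under median centring. The call was lost without CR 1, CR 2, CR 3, MC 1 or MC 3 (adjusted p = 0.0685 to 0.235).

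The promoters of the muscle isoforms with changes beyond -2 are printed with those of their brain counterparts, of which none was called, from RefSeq on GRCm38.p6. Each spans 250 bases before to 50 after the annotated start, 5′ to 3′ on the gene's strand. Capitals mark CAGCTG, an E-box of the kind that myogenic factors bind, and the MEF2 motif, named for a factor of muscle genes.
Pygm promoter, chr19:6384158-6384457, plus strand: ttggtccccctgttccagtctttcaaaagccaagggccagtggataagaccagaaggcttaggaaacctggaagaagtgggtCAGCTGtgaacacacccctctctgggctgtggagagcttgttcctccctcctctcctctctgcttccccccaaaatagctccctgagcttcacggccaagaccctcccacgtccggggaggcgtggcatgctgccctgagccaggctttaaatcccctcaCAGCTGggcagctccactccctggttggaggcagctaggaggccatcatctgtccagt
Pygb promoter, chr2:150786546-150786845, plus strand: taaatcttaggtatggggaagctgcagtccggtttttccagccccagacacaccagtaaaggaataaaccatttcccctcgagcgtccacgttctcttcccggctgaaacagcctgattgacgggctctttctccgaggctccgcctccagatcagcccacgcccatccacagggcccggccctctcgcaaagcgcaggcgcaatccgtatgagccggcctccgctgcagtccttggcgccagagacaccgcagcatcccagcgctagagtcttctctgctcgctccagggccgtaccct
Pgam2 promoter, chr11:5803747-5804046, minus strand: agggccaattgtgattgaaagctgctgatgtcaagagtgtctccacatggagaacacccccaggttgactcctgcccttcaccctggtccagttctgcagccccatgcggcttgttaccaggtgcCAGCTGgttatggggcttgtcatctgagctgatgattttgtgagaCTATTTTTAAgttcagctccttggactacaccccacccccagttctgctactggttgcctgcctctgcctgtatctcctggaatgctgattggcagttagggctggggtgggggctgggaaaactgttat
Pgam1 promoter, chr19:41911621-41911920, plus strand: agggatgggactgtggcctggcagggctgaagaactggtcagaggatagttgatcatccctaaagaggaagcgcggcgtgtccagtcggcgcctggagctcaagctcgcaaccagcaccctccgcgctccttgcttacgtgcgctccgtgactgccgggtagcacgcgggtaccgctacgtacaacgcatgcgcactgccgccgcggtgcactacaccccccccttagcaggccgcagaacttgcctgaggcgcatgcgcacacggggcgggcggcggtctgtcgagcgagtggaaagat
Eno3 promoter, chr11:70656926-70657225, plus strand: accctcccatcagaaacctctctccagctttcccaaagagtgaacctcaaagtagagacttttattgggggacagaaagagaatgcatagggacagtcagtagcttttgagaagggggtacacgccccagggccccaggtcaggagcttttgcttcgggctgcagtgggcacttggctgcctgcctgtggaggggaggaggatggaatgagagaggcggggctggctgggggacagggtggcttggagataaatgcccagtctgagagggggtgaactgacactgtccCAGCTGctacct
Eno2 promoter, chr6:124769624-124769923, minus strand: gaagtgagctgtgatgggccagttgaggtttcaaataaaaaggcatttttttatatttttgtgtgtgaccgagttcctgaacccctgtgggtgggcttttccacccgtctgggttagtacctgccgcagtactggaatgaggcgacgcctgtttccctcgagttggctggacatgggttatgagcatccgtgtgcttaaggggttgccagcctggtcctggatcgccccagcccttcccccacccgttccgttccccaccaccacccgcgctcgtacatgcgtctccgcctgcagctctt
Pygm held CAGCTG at 2 places, Pgam2 at 1 place together with a MEF2 match, and Eno3 at 1 place after the start, and the matches did not overlap. The brain counterparts Pygb, Pgam1 and Eno2 held neither. Both strands were searched.

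All 32 genes had a promoter in the RefSeq table. CAGCTG occurred in 4 of 7 muscle isoforms (Phka1 was the fourth), 3 of 5 shared forms (Aldoa, Pkm and Gys1), 0 of 7 brain isoforms, 0 of 3 liver isoforms, 0 of 1 leukocyte isoform and 1 of 9 general enzymes (Gpi1), against 18.3% of all 27025 genes in that table, each gene counted once for any of its promoters. MEF2 matched 1 of the 32, against 3.7%. CACGTG, another E-box, was in 2 genes (Pfkm and Ldha), against 8.09%, and TATAAA in 3 (Pgm1, Eno2 and Pklr), against 15.7%. A match describes letters in this window and is neither a site nor a cause, and a missing match says only that the letters are not there.

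After quantile normalization the 5 forms shared by muscle and most other tissues lay lower in CR than in MC without overlap, but none passed the test. Gys1 is the glycogen synthase of muscle and many other tissues, and Pgm1 the phosphoglucomutase that links glycogen to glycolysis. Gys1 had log2 signals of 11.30, 11.04 and 11.66 in CR, against 12.14, 12.01 and 12.44 in MC (change -0.86 ± 0.34, limma adjusted p = 0.228). Pgm1 had 11.90, 11.96 and 11.89 in CR, against 12.90, 12.47 and 12.73 in MC (change -0.78 ± 0.23, limma adjusted p = 0.177).

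Aldoa, the aldolase of muscle and most tissues, was among the brightest members with 16.49, 16.53 and 16.74 in CR, against 17.29, 17.10 and 17.17 in MC. Its change was -0.60 ± 0.19 (limma adjusted p = 0.187), and all 5 Aldoa probe sets, with changes from -1.23 to -0.60, separated the groups. Ldha codes for the lactate dehydrogenase subunit that dominates in muscle. It had 14.63, 14.65 and 14.60 in CR, against 15.39, 15.18 and 15.26 in MC (change -0.65 ± 0.16, limma adjusted p = 0.146). Pkm, the pyruvate kinase gene of muscle, brain and other tissues, had 14.22, 14.12 and 14.61 in CR, against 14.77, 14.75 and 14.73 in MC (change -0.44 ± 0.29, limma adjusted p = 0.421). With median centring Ldha, Pkm and Pgm1 turned positive at 0.29, 0.52 and 0.09.

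Among brain isoforms, Aldoc, the aldolase of astrocytes and Purkinje cells, stood apart. It had log2 signals of 14.97, 14.11 and 14.12 in CR, against 12.80, 12.75 and 12.46 in MC and 13.64, 12.83 and 13.14 in YC. Every CR array was above every other array, and every MC array below every YC array. The change from MC was 3.32-fold, or 1.73 ± 0.28 (limma adjusted p = 0.0616), and missed the threshold. Of 21 alternatives 6 called it, among them the fit without YC 1 (adjusted p = 0.0321) and the fit without YC 2 (adjusted p = 0.0191).

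The other brain isoforms differed less from MC. Pgam1, the mutase of brain and most tissues, was narrowly without overlap, with 13.48, 13.47 and 13.63 in CR, against 13.30, 13.46 and 12.94 in MC, a change of 0.29 ± 0.19 (limma adjusted p = 0.412). Eno2, the enolase of neurons, had 12.59, 12.00 and 12.79 in CR, against 11.93, 12.44 and 11.63 in MC, a change of 0.46 ± 0.33 (limma adjusted p = 0.453). Pygb, the glycogen phosphorylase of brain, had 12.47, 12.42 and 12.65 in CR, against 12.33, 12.94 and 12.61 in MC. Its change of -0.11 ± 0.21 was positive with median centring (0.81) and in the table as deposited (0.19).

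Hk1, the hexokinase of brain and red cells, differed by 0.16 ± 0.25, Pfkp, the platelet-type phosphofructokinase also abundant in brain, by 0.04 ± 0.27, and Ldhb, the lactate dehydrogenase subunit of heart and brain, by 0.26 ± 0.28. In all 3 the groups overlapped, and the limma adjusted p was 0.742, 0.935 and 0.613. Their changes under an array class term were -0.51, -0.35 and -0.06. The other Ldhb probe sets gave 0.14 with overlap, and 0.47 and 0.31 with every CR array above every MC array.

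The 3 liver isoforms separated CR from MC without a common direction, and none was called. Pygl, the liver glycogen phosphorylase, had 12.27, 13.01 and 13.19 in CR, against 12.06, 12.19 and 11.34 in MC (change 0.96 ± 0.30, limma adjusted p = 0.184). Pfkl, the liver phosphofructokinase, had 13.62, 14.02 and 13.77 in CR, against 12.79, 13.05 and 12.86 in MC (change 0.91 ± 0.51, limma adjusted p = 0.348). The other Pfkl probe sets gave -0.04 and -0.69 with overlap, and the brightest one gave -0.62 once array class was a term. Pklr, the pyruvate kinase of liver and red cells, averaged 9.59 ± 0.44 in CR, against 11.16 ± 0.20 in MC (SD, n = 3 each, change -1.57 ± 0.42, limma adjusted p = 0.156), while its other probe set past the filter gave -0.26 with overlap. Hk3, a hexokinase of leukocytes, overlapped at 0.09 ± 0.47 (limma adjusted p = 0.924), with -0.44 in the table as deposited and -0.29 with array class as a term.

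Of the 6 measured enzymes classed here as general, Gbe1, which puts branches into glycogen, had the largest difference. It was dim, with log2 signals of 10.52, 10.67 and 10.49 in CR, against 9.46, 8.98 and 6.17 in MC. MC 3 was far below the other arrays, and the change of 2.36 ± 0.76 was not called (limma adjusted p = 0.188). Without MC 3 it was 1.37 (limma adjusted p = 0.313). Tpi1, the triose phosphate isomerase, was lower without overlap, with 14.14, 13.62 and 13.77 in CR, against 14.54, 14.29 and 14.68 in MC (change -0.66 ± 0.24, limma adjusted p = 0.211). Its other probe sets gave -0.77 and -0.70, and the brightest one gave 0.32 with median centring and 0.03 with array class as a term.

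Pgk1, phosphoglycerate kinase, and Pgm2, a phosphopentomutase and phosphoglucomutase, had changes of -0.01 ± 0.17 and -0.02 ± 0.29. Pdha1 and Pdhb, subunits of pyruvate dehydrogenase, had 0.13 ± 0.23 and 0.01 ± 0.20. The groups overlapped in all 4, and these signs turned under several alternatives. Of the 11 members with several probe sets past the filter, 9 had the same sign in all of them for CR against MC, and the exceptions were Pfkl and Pgk1. The brightest probe sets of Aldoa, Tpi1, Pgk1 and Phkg1 are of the array's x type, whose probes can bind related transcripts.

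**Figure D2:**
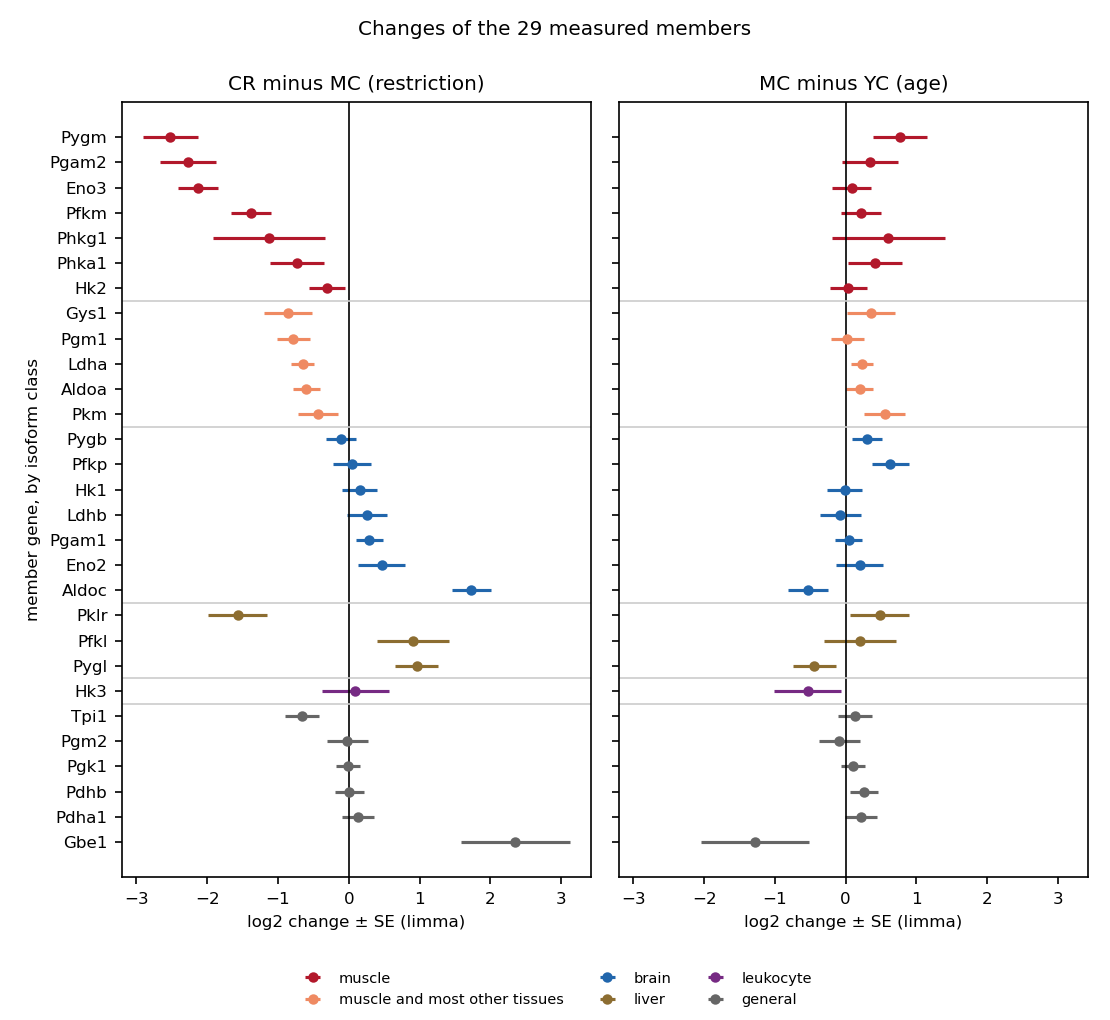
Log2 change with its SE (bars, limma) of the 29 measured enzymes, CR minus MC on the left and MC minus YC on the right, grouped and coloured by isoform class. On the left the muscle isoforms run from -2.52 to -0.31, and on the right no member passed the test.

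Isoforms of the same enzyme were then set against each other within each array. The value was the log2 signal of the muscle or shared form minus that of the other form. A difference of such values between groups shows unequal change of the 2 probe sets, and the values themselves do not compare the levels of the isoforms. Of 14 pairs 13 could be measured, since Eno1 has no value. In 10 of the 13 the CR arrays all lay below the MC arrays, in 1 above, and in 2 the groups overlapped. Over all 93865551 pairs of 13702 named genes the groups did not overlap for 36.5%, and genes recur among the 13 pairs.

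Pygm minus Pygb was -0.10, -0.48 and -0.78 in CR, against 2.28, 1.48 and 2.10 in MC and 1.02, 0.88 and 2.57 in YC. The CR arrays were below all others, and the difference from MC was -2.41 ± 0.31 (SE from both groups' SDs, exact two-sided permutation p = 0.1). With 3 against 3 arrays an exact p cannot go below 0.1, and 39 such tests were made over 3 comparisons. Pygm minus Pygl had the widest gap, at -3.48 ± 0.55 (exact p = 0.1).

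Eno3 minus Eno2 was 1.33, 1.46 and 0.45 in CR, against 3.96, 2.70 and 4.37 in MC, and the groups did not overlap (difference -2.59 ± 0.59, exact p = 0.1). Pgam2 minus Pgam1 lay between -2.04 and -1.37 in CR, against 1.07, -0.41 and 1.61 in MC (difference -2.56 ± 0.64, exact p = 0.1). Aldoa minus Aldoc was 1.52, 2.41 and 2.62 in CR, against 4.48, 4.35 and 4.71 in MC (difference -2.33 ± 0.36, exact p = 0.1). The first form was lower relative to its counterpart in every CR array of these pairs than in any MC array. Aldoa is a shared form, and its own change (-0.60) was smaller than that of Aldoc (1.73).

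The remaining separated pairs were Pfkm minus Pfkl at -2.28 ± 0.37, Pfkm minus Pfkp at -1.42 ± 0.53, Ldha minus Ldhb at -0.92 ± 0.32, Phka1 minus Phka2 (the liver subunit) at -0.90 ± 0.36 and Hk2 minus Hk1 at -0.46 ± 0.25, each with an exact p of 0.1. Pkm minus Pklr alone was higher in CR, by 1.13 ± 0.29 (exact p = 0.1). With a gene's probe sets averaged this pair overlapped, at 0.48 ± 0.51 (exact p = 0.4). Averaged in the same way, Pfkl changed by 0.06, against 0.91 for its brightest probe set, which was used in Pfkm minus Pfkl. Hk2 minus Hk3 (-0.40 ± 0.64, exact p = 0.7) and Phkg1 minus Phkg2 (-1.07 ± 0.67, exact p = 0.2) overlapped, and Hk2 minus Hk3 was 0.41 both with median centring and in the table as deposited. Between 10 and 12 pairs were separated under every alternative tried on pairs. These were other pseudocounts and scalings, averaged probe sets, and each array left out in turn. Median centring and the table as deposited give the same pair values by construction, so they are not separate checks. Array class as a term was not tried on pairs.

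**Figure D3:**
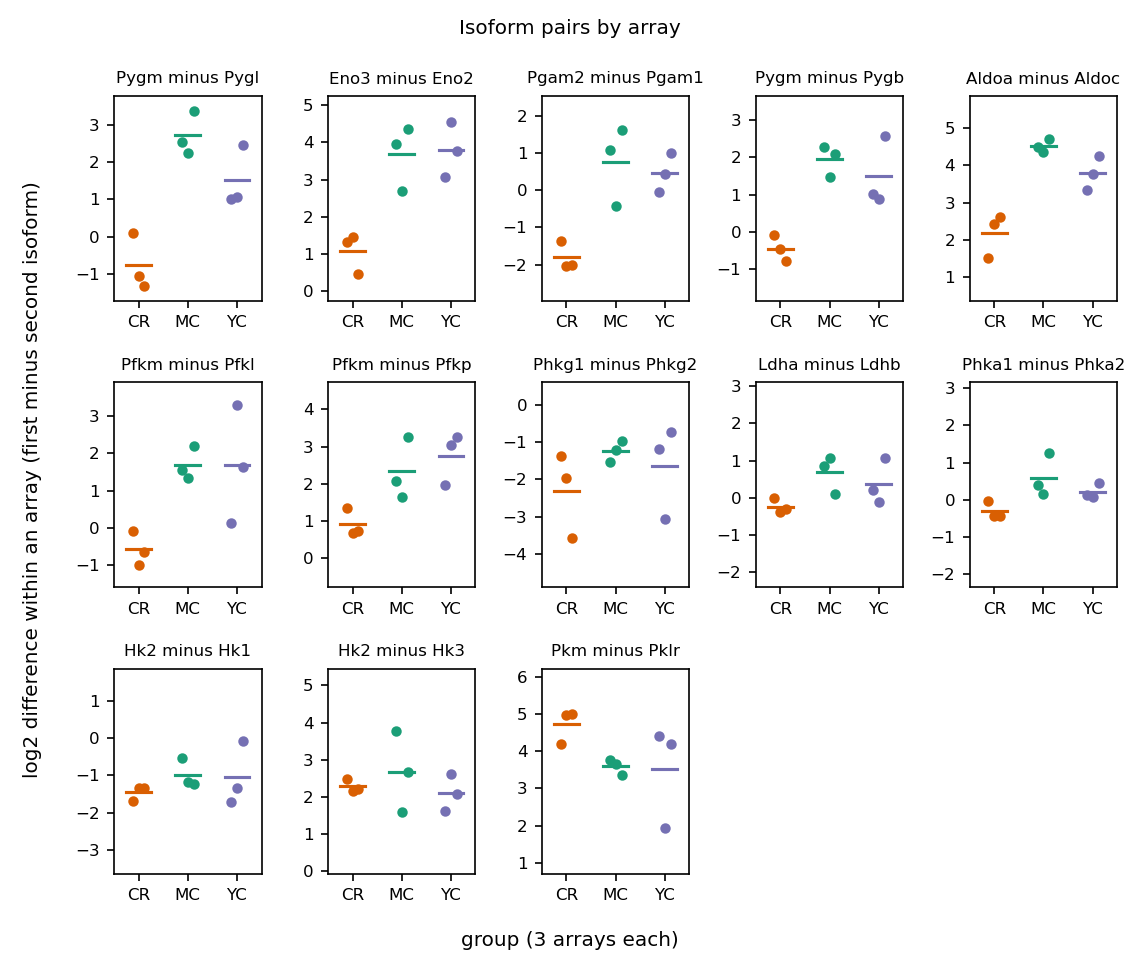
Log2 difference between 2 isoforms of an enzyme within an array, 1 panel per pair with 3 arrays (points) and their mean (line) in CR, MC and YC; every panel spans the same number of log2 units around its own centre. In the first 7 panels all CR points lie below all MC points, and in the last panel, Pkm minus Pklr, above them.

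Markers of skeletal muscle and of brain were set beside these isoforms. All 16 skeletal muscle markers were lower in CR than in MC without overlap, against 18.2% of all probe sets. Of these markers 10 were called lower, against 0.0888% of all probe sets. Myh2, a fast myosin, stood at -4.31 ± 0.43 (limma adjusted p = 0.0233) and Acta1, skeletal actin, at -1.87 ± 0.25 (limma adjusted p = 0.0357). The summed deposited signal of the 16 markers ranged from 304701 to 474339 in CR, against 1033270 to 1678290 in MC and 700082 to 1586430 in YC. Atp2a1, a calcium pump of fast fibres, and Tnni2, fast troponin I, were called as well, at -1.95 ± 0.25 and -2.22 ± 0.29 (limma adjusted p = 0.0357 for each). In RNA of whole tissue, fewer cells of a type and less RNA per cell cannot be told apart.

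The mean log2 signal of the 16 muscle markers differed by -2.34 between CR and MC. Relative to that mean, Pygm differed by -0.18 ± 0.15 (exact two-sided permutation p = 0.3), Eno3 by 0.21 ± 0.14 (exact p = 0.2) and Pgam2 by 0.07 ± 0.28 (exact p = 1), each with overlapping groups. Pfkm (0.96 ± 0.16), Phka1 (1.61 ± 0.19), Hk2 (2.03 ± 0.38) and Aldoa (1.74 ± 0.28) stood higher in every CR array than in any MC array on this measure (exact p = 0.1 each). Phkg1 overlapped at 1.21 ± 0.60 (exact p = 0.2).

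Of 12 brain tissue markers 11 were higher in CR than in MC without overlap, against 19.5% of all probe sets. The remaining marker differed by -0.71. By limma 0 were called, and 10 had an unadjusted p under 0.05, against 18.5% of all probe sets. Car8 of Purkinje cells stood at 2.61 ± 0.46 (limma adjusted p = 0.0804). Gabra6, a GABA receptor subunit of cerebellar granule cells, stood at 2.21 ± 0.54 (limma adjusted p = 0.146). The summed signal of the 12 markers ranged from 73325 to 122785 in CR, against 33813.8 to 41576 in MC and 35647.6 to 66520.6 in YC. The mean of these markers differed by 1.48 between CR and MC. Aldoc exceeded it by 0.25 ± 0.08, with every CR array above every MC array (exact p = 0.1). Eno2 (-1.02 ± 0.35), Ldhb (-1.22 ± 0.51), Hk1 (-1.33 ± 0.28), Pfkp (-1.44 ± 0.36) and Pygb (-1.60 ± 0.32) were lower on this measure in every CR array than in any MC array (exact p = 0.1 each).

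The inner ear markers stood on the same side as the brain markers, with a median of 1.02. Of the 10 that passed the signal filter 9 were higher in CR, and 6 of them without overlap, against 19.5% of all probe sets. Of 5 measured leukocyte markers, set beside Hk3, 4 were lower with a median of -0.48, with Ngp, a neutrophil granule protein, at -0.75 ± 0.23 (limma adjusted p = 0.182). Of 4 liver markers past the filter, set beside the liver isoforms, 2 were lower and 2 higher, with Cyp2e1, a cytochrome P450, at 0.60 ± 0.29 (limma adjusted p = 0.289). Of 3 red cell markers past the filter all were lower, with Slc4a1, the anion exchanger of red cells, at -0.84 ± 0.23 (limma adjusted p = 0.164). The part of these cells in the values of Hk1, Hk3, Pklr and the liver isoforms was not tested.

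**Figure D4:**
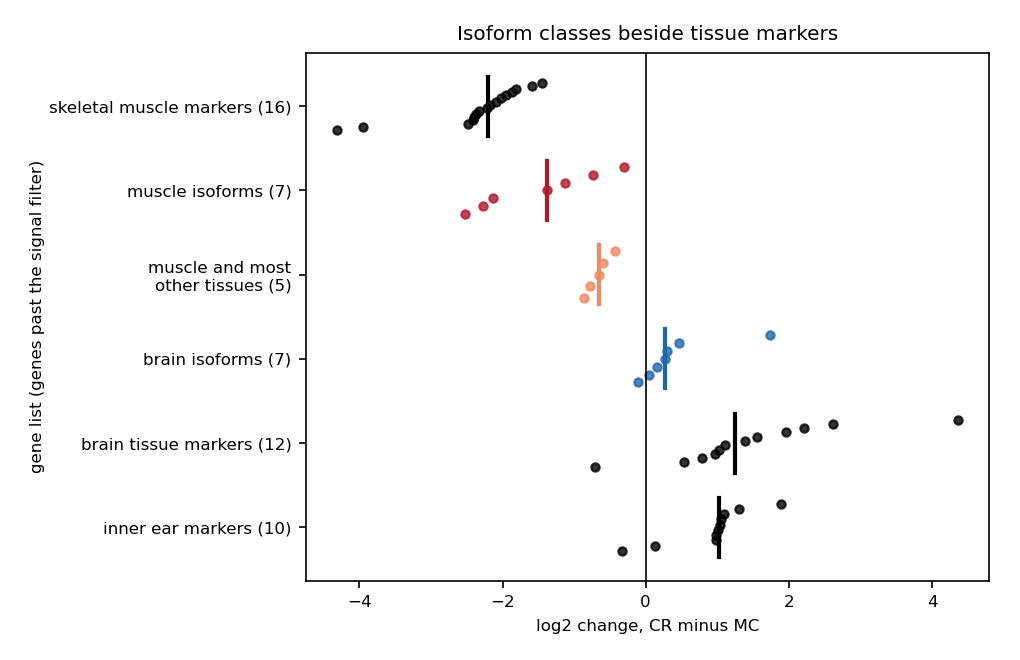
Log2 change, CR minus MC, of single genes (points) and their median (vertical line) for 3 isoform classes and for markers of skeletal muscle, brain tissue and inner ear. Muscle markers have a median of -2.20 and muscle isoforms of -1.38, and brain markers have a median of 1.25 and brain isoforms of 0.26.

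CR was also set against YC, the only group with arrays of both low and high median. These groups differed in both age and intake, which cannot be told apart here. No member was called, and 0% of all 27022 probe sets were, in limma. With unadjusted p under 0.05 stood 10 of the 29 members, against 10.8% of probe sets. Without overlap 7 members were lower, against 9.1%, and 5 higher, against 11.4%. The muscle isoforms were again all negative, with Eno3 at -2.04 ± 0.28 (limma adjusted p = 0.16), Pgam2 at -1.93 ± 0.40, Pygm at -1.75 ± 0.38 and Pfkm at -1.16 ± 0.28. Of these isoforms Hk2 turned positive with median centring (0.33), and Phkg1 without CR 3 or YC 3 (up to 0.12). Aldoc was at 1.20 ± 0.28 (limma adjusted p = 0.385). Without YC 1, Eno3 (-2.26), Pfkm (-1.43) and Aldoc (1.41) were called, in a fit that called 328 probe sets over the whole array.

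YC 1 shared the low array median of the CR arrays, which allows a reading within that class, with 3 arrays against 1 and no test. Age and intake both differ in this reading as well. Eno3 averaged 13.54 in CR, against 15.15 in YC 1, and Pgam2 11.72, against 13.24. Pygm averaged 12.06 in CR, against 13.37 in YC 1, and Pfkm 13.23, against 13.85. All 3 CR arrays lay below YC 1 for these 4 genes and above it for Aldoc, which averaged 14.40 in CR, against 13.64 in YC 1. Other members did so too, such as Hk1 (-0.30) and Hk3 (-0.70) below YC 1 and Pfkp (0.41) above it. Hk2 and Phkg1, also muscle isoforms, overlapped YC 1. The share over all probe sets was not computed for this reading. The differences of -1.61 for Eno3, -1.52 for Pgam2, -1.31 for Pygm, -0.63 for Pfkm and 0.76 for Aldoc were smaller than those against MC.

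The comparison of MC with YC asked what differed with age. In limma no enzyme passed the test and 0% of all probe sets did, and 1 of 29 had an unadjusted p under 0.05, against 3.39%. Changes were positive in 22 members and negative in 7, with a median of 0.20, against 0.02 over all probe sets. All 7 muscle isoforms had positive changes, with a median of 0.34, but none separated the groups, and only 4 of the 7 were positive under median centring, as under the fit with an array class term. All 16 muscle markers were positive too, with a median of 0.42, and they overlapped as well.

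Only Pkm was higher in every MC array than in any YC array, against 2.97% of probe sets, and only Aldoc lower, against 2.92%. Pkm had 14.77, 14.75 and 14.73 in MC, against 14.44, 13.44 and 14.71 in YC, a gap that is narrow at YC 3 (change 0.55 ± 0.29). Aldoc had 12.80, 12.75 and 12.46 in MC, against 13.64, 12.83 and 13.14 in YC (change -0.53 ± 0.28). Pfkp, at 0.63 ± 0.27 with overlapping groups, was the member with the unadjusted p under 0.05. Each of these 3 had a limma adjusted p of 1.

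Pygm had the largest positive change at 0.77 ± 0.38 and Gbe1 the largest negative at -1.28 ± 0.76, both with overlap. Without MC 3, far below the other arrays for this gene, Gbe1 stood at -0.27. Eno3 stood at 0.09 ± 0.28 and turned negative with median centring (-0.16) and with array class as a term (-0.13). Of the 13 isoform pairs, Aldoa minus Aldoc alone separated the ages, with 4.48, 4.35 and 4.71 in MC, against 3.34, 3.77 and 4.25 in YC (difference 0.73 ± 0.28, exact two-sided permutation p = 0.1). Over all pairs of named genes 6.03% did so. The comparisons of CR with MC and of MC with YC share the MC arrays, so opposite signs in them are not independent.

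The other genes of the pathway, 56 regulators, transporters and further enzymes, gave no call by limma in any comparison. Of these, 47 passed the signal filter, and 10, 1 and 13 of them had an unadjusted p under 0.05 for CR against MC, MC against YC and CR against YC, against 18.5%, 3.39% and 10.8% of all probe sets. For CR against MC 25 were higher and 22 lower with a median of 0.05. In 12 the CR arrays all lay below the MC arrays, against 18.2% of all probe sets, and in 10 above, against 19.5%. The smallest p belonged to Ugp2, which makes the UDP-glucose from which glycogen is built, at -0.83 ± 0.19 (limma adjusted p = 0.134), and to Ppp1r3c, a glycogen-targeting subunit of protein phosphatase 1, at -1.34 ± 0.31 (limma adjusted p = 0.144).

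Further genes of this list were chosen after their values were seen. Ppp1r3a, the glycogen-targeting subunit of skeletal muscle, had -1.84 ± 0.51, and Slc2a4, the insulin-regulated glucose transporter of muscle and fat, -0.97 ± 0.30. Gaa, the lysosomal glucosidase that degrades glycogen, had -0.88 ± 0.31 and Pdk4, a kinase that switches pyruvate dehydrogenase off, -0.82 ± 0.21. All 4 separated CR from MC on the lower side. On the other side were Slc2a1, the glucose transporter of blood barriers, at 0.43 ± 0.28, Pfkfb3, which makes an activator of phosphofructokinase, at 0.83 ± 0.42, and Mpc1, a subunit of the mitochondrial pyruvate carrier, at 0.97 ± 0.40. With median centring Ugp2 and Pdk4 turned positive at 0.13 and 0.12, and with array class as a term Slc2a1 turned negative at -0.37. For MC against YC 34 of the 47 were higher and 13 lower, with a median of 0.18.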

How the data were processed

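RNA of 9 pooled cochlear samples, 3 per group as the labels' titles give them, was hybridised to 1-colour arrays, and per the labels' protocols it was extracted with TRIzol and labelled by in vitro transcription. The authors deposited linear intensity values per probe set, made with GCOS 1.3 per the submitters' processing notes, and every array's trimmed mean lay between 1493.56 and 1496.42. Signal algorithm and background correction: not given in the sources used here. No batch is named in the labels, and array medians split the arrays at a signal of 700 into low and high classes, which is not a label.

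From these values log2(signal + 16) was computed and quantile normalized, so fold changes of dim probe sets are understated. The dimmest 40% by mean log2 signal were removed, which left 27022 probe sets. Symbols were updated through gene IDs in RefSeq of GRCm38.p6 (34741 matched), by which the older names of Pgm1 and Pgm2 were also settled. Probe sets with several symbols (932) or none (9160) were tested but not named.

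Group means of all 9 arrays were fitted in limma 3.58.1 (R 4.3.3) with a variance trend. SE and adjusted p come from that fit, with Benjamini-Hochberg adjustment over all probe sets at 0.05, and the number of arrays limits the precision (median SE 0.43). In simulated data of 27022 probe sets for CR against MC, 0%, 26%, 58% and 74% of 50 probe sets each lowered by 1, 2, 3 and 4 log2 units were called. Isoform pairs and differences from marker means used an exact two-sided permutation test over arrays.

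The members and lists were chosen with earlier results of these data known. Every member could be named, and of each other list up to 4 called genes, or the 2 of smallest p where none was called. Exceptions are named as such, and Tecta, Kcne1, Slc26a5 and Pou4f3 were named because they did not pass the filter. Alternatives were other pseudocounts, filters and scalings, array weights, no variance trend, a fit of the compared groups alone, the replicate number as a block, array class as a term, a gene's probe sets averaged, and each array left out in turn.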

Additional observations from a re-analysis of the deposited data

How the results depend on the processing

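For CR against MC, 2 members were called. The count was 1 with a pseudocount of 1, 2 with 64 or with no filter, 3 with a filter at the 60th percentile or with the mean of all probe sets, 12 with array weights and 9 with only the compared groups. It was 0 with median centring, in the table as deposited, without a variance trend and with array class as a term. With each array left out it ranged from 0 (any CR array, MC 1 or MC 3) to 8 (YC 2), with 5 without YC 1. Over all probe sets 25 were called, against 0 to 3397 under the alternatives: 3397 with array weights, 1846 with only the compared groups, 1147 without YC 2 and 209 without YC 1. With the replicate block 0 members were called. Samples with the same number had correlations of -0.06 to 0.04 for CR and MC, 0.04 to 0.27 for CR and YC and -0.29 to 0.02 for MC and YC. Not every one was over 0.1, so the numbers were not taken as pairs. Age called 0 members in all 21 alternatives, and CR against YC likewise except without YC 1, where 3 were called. Array class as a term was not tried on the isoform pairs. Separated isoform pairs numbered 10 to 12 for restriction. For age they numbered 1, 0 with median centring and in the deposited table, and 1 to 5 with an array left out (4 without MC 2, 2 without YC 2, 5 without YC 3). Median centring and the deposited table give the same pair values by construction.

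Median centring put the overall median at 0.58 for restriction and -0.15 for age. It turned Hk2 (0.58), Ldha (0.29), Pkm (0.52), Pgm1 (0.086), Pygb (0.81), Tpi1 (0.32), Pgk1 (0.62), Pgm2 (0.29), Ugp2 (0.13), Pdk4 (0.12), the pair Hk2 and Hk3 (0.41), and Eno3 with age (-0.16). The filter at the 60th percentile left no value for Phkg1 or Gbe1. Array class as a term turned Hk2 (0.029), Hk1 (-0.51), Pfkp (-0.35), Ldhb (-0.056), Pfkl (-0.62), Hk3 (-0.29), Tpi1 (0.028), Pgm2 (0.012), Pdha1 (-0.24), Slc2a1 (-0.37), and Eno3 with age (-0.13). The deposited table turned Pygb (0.19), Hk3 (-0.44) and the pair Hk2 and Hk3 (0.41), and array weights turned Pfkp (-0.031), Pgk1 (0.046) and Pdhb (-0.021). Leaving out arrays gave both signs for Pfkp (-0.19 to 0.28), Pygb (-0.26 to 0.044), Hk3 (-0.26 to 0.50), Pgk1 (-0.11 to 0.088), Pgm2 (-0.15 to 0.046), Pdha1 (-0.040 to 0.33), Pdhb (-0.16 to 0.20), Eno3 with age (-0.13 to 0.35) and the pair Hk2 and Hk3 (-0.95 to 0.15). The cause of these turns was not tested.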
